A study of Mus musculus with 6 samples.

Results

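A set of 40 genes of sphingolipid and glycosphingolipid metabolism was followed in immortalized mouse fibroblasts. They were chosen by function, from the enzymes and regulators that make ceramide, convert it to sphingomyelin or glycolipids and break these lipids down, by a rule that uses no measured value, although the set was drawn up with earlier results of these data known. The table of the series listed 36 of the 40 among its 19078 genes, 32 under their present symbol and 4, Cers2, Cers4, Cers5 and Cers6, under their older Lass symbols. Sptlc3, Cers1, Acer2 and Sgpl1 had no matching entry and were not analysed here.

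The series held 6 poly(A) RNA-seq libraries. Of these, 3 came from Ms4a15 OE cells and 3 from controls. Ms4a15 encodes a membrane protein of the MS4A family, and the Ms4a15 OE line is a selected cell pool, not a clone, in which the gene was switched on at its own locus by CRISPR activation from a lentiviral guide. By the study's methods the controls received empty lentivirus, whereas the labels call them wild type and the series text calls them parental MF cells. All libraries came from 1 immortalized mouse embryonic fibroblast background that carries a conditional Gpx4 deletion system, Cre-ERt2 and the CRISPR activation system, grown in serum medium with no further treatment named. Nothing stated whether the 3 libraries of a group came from separate cultures.

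The values analysed are 1 mean per gene over all 6 libraries, in normalized counts, meaning read counts divided by a size factor that puts the libraries on a common depth. This mean is the authors' value and holds both groups together. It gives the standing level of a gene in these fibroblasts, but neither its spread between libraries nor any difference between Ms4a15 OE and control cells, and a gene on in 1 group alone would appear at a lower mean. Since long transcripts yield more reads, levels of different genes were compared as normalized counts per kilobase (kb) of the longest annotated protein-coding transcript. The size factors, recovered from the lowest means, ran from 0.8865 to 1.1367, so the libraries differed in depth by 1.28-fold, and the means summed to 40991755 normalized counts. Counting error was therefore small for most genes. For the 28 sphingolipid genes with a mean of at least 1000, the 95% Poisson interval, which covers counting error alone, reached at most 2.54% of the mean to either side.

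Markers of fibroblasts stood high by their mean normalized counts. Col1a2 had a mean of 135155 and Col1a1 of 66981, both chains of type I collagen, and the intermediate filament Vim had 115135. Of the 12 fibroblast markers listed, 8 had a mean of at least 1000, while the proteoglycans Dcn, at 12.1, and Lum, at 0.675 from 4 reads in all, were near absent. None of the 13 epithelial, endothelial and leukocyte markers listed reached 1000, and the highest was Krt14 at 170. The neuronal tubulin Tubb3 had a mean of 2463. Ms4a15 itself had a mean of 637.5 normalized counts, and how this was divided between the groups cannot be read from the mean.

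Sphingolipids are membrane lipids built on a long-chain base. Serine palmitoyltransferase makes the base in the endoplasmic reticulum, ceramide synthases attach a fatty acid, and a desaturase turns dihydroceramide into ceramide, the branch point of the pathway. Ceramide is then moved to the Golgi and given a phosphocholine head to form sphingomyelin or sugars to form glycosphingolipids. In lysosomes the same lipids are taken apart again to sphingosine, which can be phosphorylated to the signalling lipid sphingosine-1-phosphate (S1P).

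The sphingolipid genes were widely detected and spanned a broad range. The mean was at least 10 normalized counts for 34 of the 36, or 94.4%, compared with 67.7% of all listed genes, and at least 1000 for 28, or 77.8%, compared with 35.0%. Their median was 1531 normalized counts, against 237 for all listed genes. Per kb the median was 441 normalized counts with quartiles of 187 and 649, against 167 for the 15817 genes that had a length and 404 for those of them with a mean of at least 10. Their median fell at percentile 71.38 among all listed genes and 58.65 among genes whose mean reached 10. Together the 36 genes took 0.208% of all summed means.

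**Figure D1:**
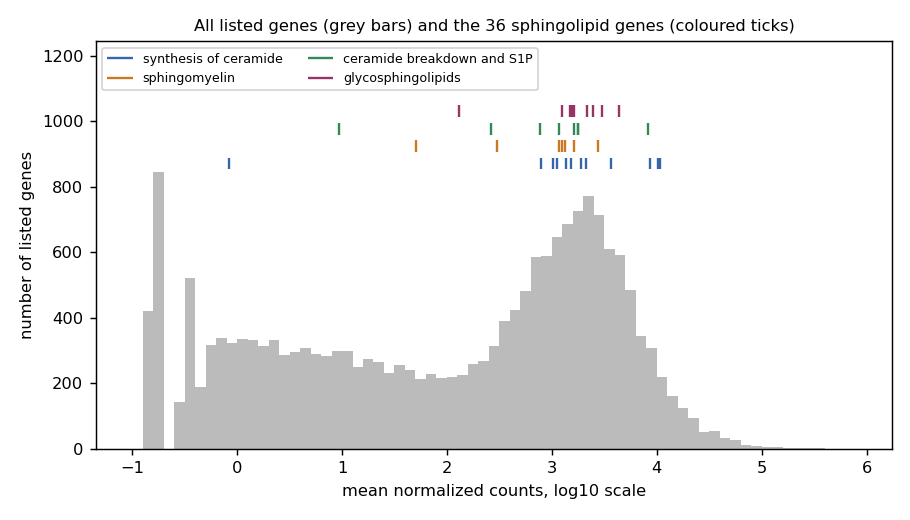
Number of listed genes (y axis) by mean normalized counts over all 6 libraries (x axis, log10 scale) as grey bars, with 1 coloured tick for each of the 36 sphingolipid genes, in a row for each step. Most ticks lie over the right-hand hump of the distribution, 28 of them at a mean of 1000 or more, and the leftmost is Degs2 at 0.843.

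Of these, 4 genes stood apart at the top. Cers2, Degs1, Cers5 and Asah1 had 4658, 4226, 3891 and 2979 normalized counts per kb, and the next gene, Ugcg, had 1088. These 4 held 54.8% of the level per kb of the longest transcript, summed over the 36 genes. Their share depends on the length, and it was not computed for the other ways of treating length. A further 26 genes lay between 100 and 1088 normalized counts per kb, and 6 lay under 100, namely Sphk1, Cers4, Gba2, Smpd3, Sgpp2 and Degs2. By step, the median per kb was 606.7 for synthesis of ceramide (12 genes listed), 239.2 for sphingomyelin (7 genes), 191.0 for ceramide breakdown and S1P (8 genes) and 590.5 for glycosphingolipids (9 genes). These medians hold for the longest transcript as the length. Without division by length the steps lay closer together, and ceramide breakdown and S1P came above sphingomyelin.

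**Figure D2:**
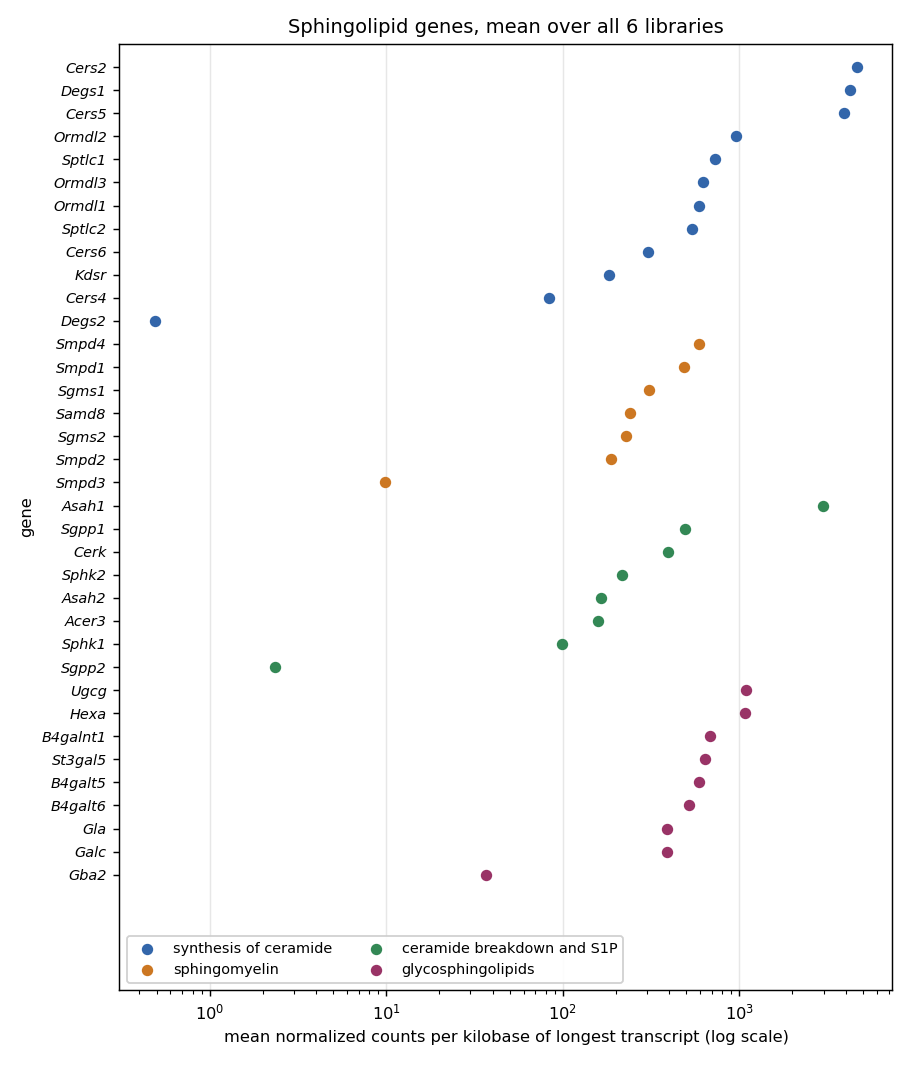
Mean normalized counts per kilobase of the longest transcript (x axis, log scale) for each of the 36 listed sphingolipid genes (y axis), coloured by step and ordered within it; each point is 1 mean over all 6 libraries, so there are no error bars. Cers2, Degs1, Cers5 and Asah1 lie at 2979 or above, and Degs2 and Sgpp2 lie far to the left at 0.488 and 2.35.

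Synthesis of ceramide begins with serine palmitoyltransferase, whose core is a dimer of SPTLC1 with a catalytic partner. Sptlc1 had a mean of 1907 normalized counts, or 732 per kb, and Sptlc2, the catalytic subunit, had 3632, or 541 per kb. Sptlc1 thus made up 57.48% of their level per kb, but 34.43% of the undivided counts, because the annotated Sptlc2 transcript is longer at 6710 bases against 2606. Which subunit was higher was not settled by these values. Among the further pathway genes, Sptssa, a small activating subunit, had 1431 normalized counts per kb, 1.96 times the level of Sptlc1, but undivided the ratio was 1.01.

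The ORMDL proteins bind this enzyme and restrain it when ceramide is plentiful. All 3 genes were present, with 957 normalized counts per kb of the longest transcript for Ormdl2, 623 for Ormdl3 and 590 for Ormdl1. With the union of exons as the length they differed more, at 901, 623 and 239 in turn. Ormdl2 was the highest of them under each of the 4 ways of treating length, with a share between 37.7% and 51.11%. However, 66.7% of its exon bases are also covered by exons of Dnajc14 on the opposite strand, and the sources did not state whether reads were counted by strand, so its level is uncertain. For Ormdl1, 8.7% of the exon bases are shared with Gm28778 on the same strand. The coding sequences of the 3 ORMDL genes matched at 73.0 to 75.6% of aligned bases. Kdsr, which reduces the ketone of the new base, had 184 normalized counts per kb, and Degs1 exceeded it 23.0-fold per kb of the longest transcript and 8.53-fold undivided.

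Ceramide synthases differ in the fatty acid they attach. Cers2, which prefers very-long-chain acyl groups, had a mean of 10322 normalized counts (chr3:95314791-95323599, plus strand), and Cers5, which prefers palmitoyl groups, had 10797 (chr15:99734881-99772885, minus strand). Together they held 95.7% of the family's level per kb, 95.1% with the union of exons as the length, 87.9% undivided and 87.8% per kb of coding length. Which of the pair was higher depended on the length, with Cers2 at 52.14% and Cers5 at 43.55% per kb of the longest transcript, and 45.58% and 49.49% with the union of exons. Cers6, which like Cers5 uses palmitoyl groups, had 302 normalized counts per kb, below Cers5 by 12.9-fold and Cers2 by 15.4-fold. These folds depended on the length and fell to 5.08 and 4.85 undivided and to 4.81 and 5.00 per kb of coding length. Cers4 had 83.0 normalized counts per kb, or 0.9295% of the family. Its annotated transcript of 9475 bases is the longest of these 4, and undivided it had 3.274%. Cers3, on the list of further genes and best known from skin and testis, had a mean of 11.9 normalized counts.

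For the last step, introduction of the double bond, nearly all of the level lay in 1 gene. Degs1, the dihydroceramide desaturase of most tissues, had a mean of 8654 normalized counts (chr1:182275772-182282804, minus strand), or 4226 per kb. It exceeded Sptlc1 by 5.77-fold and Sptlc2 by 7.81-fold per kb of the longest transcript, and by 4.54-fold and 2.38-fold undivided. Degs2, which also acts as a hydroxylase making phytoceramide, had a mean of 0.843 (chr12:108678711-108702315, minus strand). This mean corresponds to 5 reads in all, in 3 of the 6 libraries, with a counting interval of 0.276 to 1.96. Degs1 accounted for 99.99% of the family under each way of treating length.

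Sphingomyelin is made by Sgms1 in the Golgi and Sgms2 at the plasma membrane, and the related Samd8 makes a ceramide phosphoethanolamine. The 3 genes lay close together, at 308, 229 and 239 normalized counts per kb. No order held, since the highest share was that of Sgms1 per kb of the longest transcript (39.7%), of Samd8 undivided (38.72%) and of Sgms2 with the union of exons (39.22%). Col4a3bp, which encodes the ceramide transfer protein CERT that feeds this step, had 714 normalized counts per kb. The level of each synthase was lower than that of Ugcg, which draws on the same ceramide, at 1088.

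The sphingomyelinases, which release ceramide from sphingomyelin, fell into present and low members. Smpd4, a neutral sphingomyelinase of the endoplasmic reticulum and nuclear envelope, had 590 normalized counts per kb, and Smpd1, the lysosomal acid sphingomyelinase, had 488. Smpd4 held 46.25% of the family per kb and 64.09% undivided, but Smpd1 was higher with the union of exons, at 48.18%. Smpd2 had 188 normalized counts per kb, with 20.3% of its exon bases shared with Mical1 on the opposite strand. Smpd3, the neutral enzyme known from brain and cartilage and from exosome release, had a mean of 50.5 normalized counts with a counting interval of 45.0 to 56.6, or 9.82 per kb, and Smpd4 exceeded it by 31.3- to 60.1-fold under the 4 ways of treating length. Of the acid sphingomyelinase-like genes on the list of further genes, Smpdl3b had a mean of 2606 normalized counts and Smpdl3a had 3 reads in all.

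**Figure D3:**
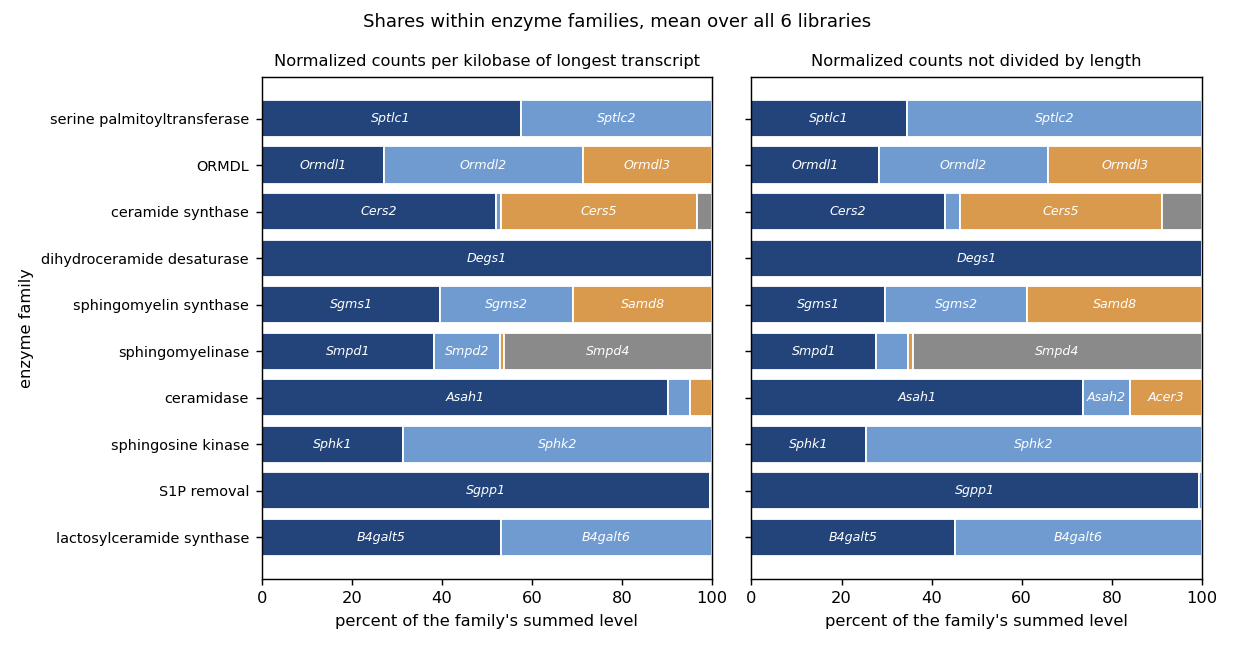
Percent of each enzyme family's summed level (x axis) held by each listed member, for 10 families (y axis), per kilobase of the longest transcript on the left and without division by length on the right; unlabelled slivers are Cers4 and Cers6, Smpd2 and Smpd3, Asah2 and Acer3, Degs2 and Sgpp2 where their share is small. Degs1, Sgpp1 and Asah1 fill most of their bars in both panels, whereas the largest share changes hands between the panels for serine palmitoyltransferase, ceramide synthase, sphingomyelin synthase and lactosylceramide synthase. Sgpl1, of the family of Sgpp1, and Acer2, of that of Asah1, had no matching entry and are missing from the bars.

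Of the 3 ceramidase genes listed, that of the lysosomal enzyme had the highest level. Asah1, acid ceramidase, had a mean of 8260 normalized counts (chr8:41340197-41374773, minus strand), or 2979 per kb. This was 6.11 times the level per kb of Smpd1, which acts just upstream of it in the lysosome, and 11.2 times per kb of coding length. Asah1 held 90.23% of the level per kb of the 3 ceramidases listed and between 71.78% and 91.84% under the 4 ways of treating length. The neutral ceramidase Asah2 had 165 normalized counts per kb and the alkaline ceramidase Acer3 had 158, so the mean of Acer3, 1791 normalized counts, was spread over an annotated transcript of 11340 bases. Asah1 exceeded Acer3 by 3.13- to 20.8-fold under the 4 ways of treating length, lowest per kb of coding length. Cerk, which phosphorylates ceramide, had 395 normalized counts per kb.

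Sphingosine kinases were modest. Sphk2, found in the nucleus and at internal membranes, had a mean of 771 normalized counts, or 217 per kb, and Sphk1, the cytosolic kinase, had 264, or 99.1 per kb. Sphk2 exceeded Sphk1 by 2.19-fold per kb of the longest transcript, with a range of 1.84 to 3.36, and held between 64.78% and 77.05% of their sum under the 4 ways of treating length, although 21.9% of its exon bases are shared with Dbp and Rpl18 on the opposite strand. Of the S1P phosphatases, Sgpp1 had a mean of 1640 normalized counts and Sgpp2 (chr1:78310345-78420289, plus strand) had 9.42 with a counting interval of 7.12 to 12.2. Sgpp1 held 99.53% of their level per kb, an excess of 123- to 210-fold under the 4 ways of treating length.

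The further genes of S1P transport and reception showed a similar split between present and low members. Among the receptors, S1pr1 had 683 normalized counts per kb and S1pr2 had 152, while S1pr5 had 3.95. The receptor genes S1pr3 and S1pr4 had no matching entry, so their levels are not known. Abcc1, a transporter of many substrates that can export S1P, had a mean of 14057 normalized counts, whereas the dedicated exporters Spns2 and Mfsd2b had means of 9.89 and 21.3. The broad lipid phosphate phosphatases Plpp2, Plpp1 and Plpp3 had 2542, 962 and 725 normalized counts per kb, against 493 for Sgpp1. Undivided the order changed, at 4205 for Plpp2, 2291 for Plpp3 and 1537 for Plpp1, against 1640 for Sgpp1. Aldh3a2, which oxidizes the fatty aldehyde left when S1P is cleaved, had 833 normalized counts per kb.

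Glycosphingolipids start with glucosylceramide. Ugcg, the glucosylceramide synthase, had a mean of 4366 normalized counts (chr4:59189257-59222833, plus strand). At 1088 per kb of the longest transcript it was the highest of the 9 genes of this group, just above Hexa at 1073. With the union of exons as the length Hexa was higher, at 1073 against 838 for Ugcg. The next sugar is added by B4galt5 or B4galt6, which had 590 and 520 normalized counts per kb. Which was higher depended on the length, since B4galt5 held 53.16% of their sum per kb and 45.14% undivided. St3gal5, which makes the ganglioside GM3, had 638 normalized counts per kb, and B4galnt1, which extends GM3 to GM2, had 682, with 20.7% of its exon bases shared with Slc26a10 on the opposite strand. The 5 genes from glucosylceramide to GM2 thus lay from 520 to 1088 normalized counts per kb of the longest transcript. Their range depended on the length, from 473 to 838 with the union of exons and from 1021 to 3694 per kb of coding length. Ratios between single genes did too. Ugcg, for example, exceeded St3gal5 by 1.7-fold per kb of the longest transcript and by 1.41-fold with the union of exons. Undivided the ratio was 2.8, and per kb of coding length it was 2.95.

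Beyond GM2 and on the other branches the further genes were uneven. B3galt4, which makes GM1 from GM2, had a mean of 11.3 normalized counts, while the sialyltransferase St3gal2 that acts on later gangliosides had 2454. St8sia1, which opens the b-series from GM3, had 1 read in all 6 libraries together. A4galt, which starts the globo-series, had 4 reads in all, and B3gnt5, which starts the lacto-series, had 1, whereas B3galnt1, which acts after A4galt, had 691 normalized counts per kb. Ugt8a, which makes galactosylceramide in myelin-forming cells, had 3 reads in all, and Gal3st1, which sulfates that lipid, had a mean of 4.46 normalized counts. The genes that open these branches were therefore at 1 to 4 reads, the highest per kb being A4galt at 0.295 normalized counts. On the route from glucosylceramide through GM3 to GM2 the lowest gene per kb of the longest transcript was B4galt6, at 520 normalized counts. Which gene was lowest depended on the length, and undivided it was St3gal5, with a mean of 1557. For the step after this route, to GM1, B3galt4 had 7.13 normalized counts per kb.

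**Figure D4:**
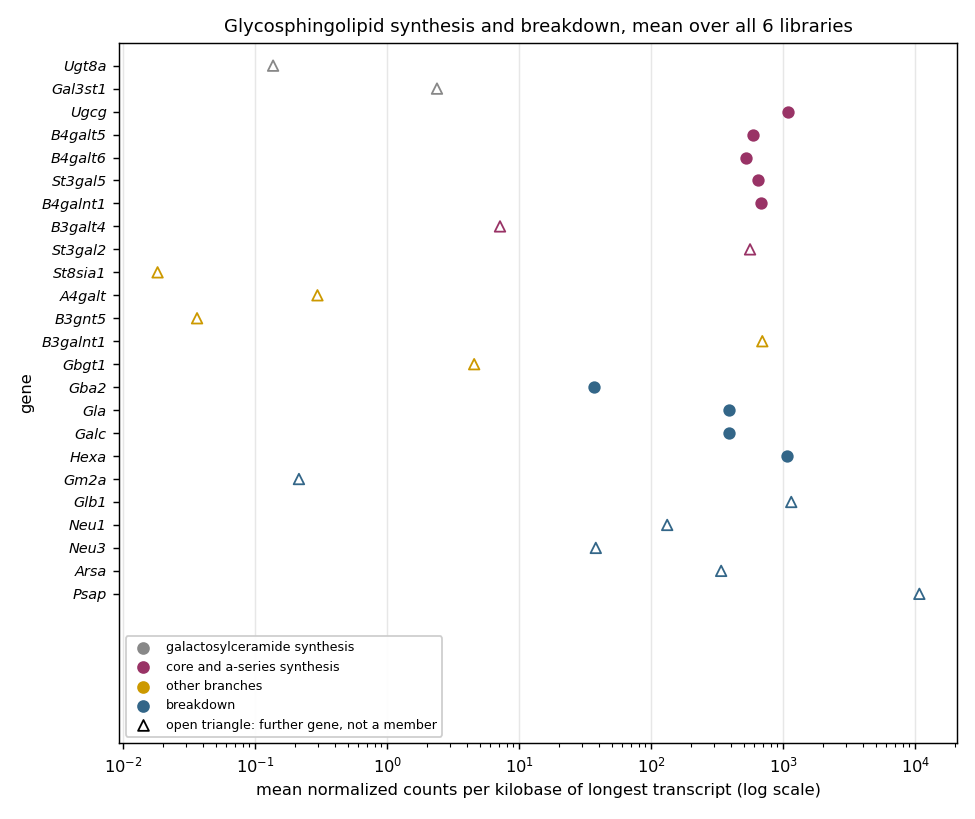
Mean normalized counts per kilobase of the longest transcript (x axis, log scale) for genes of glycosphingolipid synthesis and breakdown (y axis), as filled circles for the 9 genes of the set and open triangles for further pathway genes; each point is 1 mean over all 6 libraries. The 5 genes from Ugcg to B4galnt1 lie between 520 and 1088, while St8sia1, A4galt, B3gnt5 and Ugt8a lie below 1 and Psap lies far to the right at 10701.

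Breakdown of glycosphingolipids was represented across the lysosomal route. Hexa, the alpha subunit of beta-hexosaminidase, had a mean of 2142 normalized counts, or 1073 per kb. Gla, alpha-galactosidase A, had 390 normalized counts per kb and Galc, galactosylceramidase, had 388. Galc was thus present where Ugt8a, which makes its best known substrate, had 3 reads. Gba2, which cleaves glucosylceramide outside the lysosome, had a mean of 130 normalized counts with a counting interval of 121 to 139, or 36.6 per kb, the lowest of the 9 genes of this group. Among the further genes, Glb1, the lysosomal beta-galactosidase, had 1146 normalized counts per kb. The saposin precursor Psap, whose products present lipids to these enzymes, had 10701 normalized counts per kb, 9.97 times Hexa and 2.30 times Cers2. By contrast Gm2a, the activator that presents GM2 to hexosaminidase, was listed with 5 reads in all, in 3 of the 6 libraries. Exon overlap with other genes was examined for the genes of the set alone, not for Gm2a or the other further genes.

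The list of further pathway genes held 57 names, of which 48 were matched. Their median was 735.1 normalized counts, and 34 of the 48 had a mean of at least 10, 21 of at least 1000 and 8 of under 1. Besides those named above, the genes whose mean reached 1000 included Elovl1, which elongates very-long-chain fatty acids, at 5025, St6galnac4 at 3682, the acid amidase Naaa at 2422, the sulfatase activator Sumf1 at 2420, the glycolipid transfer protein Gltp at 1988 and arylsulfatase A, Arsa, at 1178. The others under 1 were Enpp7, the alkaline sphingomyelinase of the gut, with 3 reads, and St6galnac5, with 1.

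The start regions of the desaturase and S1P phosphatase genes are shown because the members of each of these families differed most in level. They are taken from RefSeq (GRCm38.p6), cover the bases before the RefSeq start up to the first base of an annotated exon, are read 5′ to 3′ on the gene's own strand, and have each CG dinucleotide in capitals. For Degs1 the RefSeq start lies inside the gene as GENCODE gives it, so that its window begins 359 bases after the outermost GENCODE start, while the other 3 windows end just before theirs.
Degs1, chr1:182282225-182282445, minus strand: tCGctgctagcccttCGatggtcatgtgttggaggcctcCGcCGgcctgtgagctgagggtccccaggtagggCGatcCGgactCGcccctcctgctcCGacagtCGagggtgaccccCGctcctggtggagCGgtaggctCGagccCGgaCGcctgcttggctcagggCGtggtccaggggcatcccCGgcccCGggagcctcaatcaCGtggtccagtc
Degs2, chr12:108702316-108702556, minus strand: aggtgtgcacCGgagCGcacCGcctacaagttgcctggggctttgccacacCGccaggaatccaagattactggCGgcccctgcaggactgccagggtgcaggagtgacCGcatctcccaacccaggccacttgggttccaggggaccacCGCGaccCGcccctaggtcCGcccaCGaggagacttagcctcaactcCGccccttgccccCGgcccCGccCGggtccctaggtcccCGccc
Sgpp1, chr12:75735730-75735979, minus strand: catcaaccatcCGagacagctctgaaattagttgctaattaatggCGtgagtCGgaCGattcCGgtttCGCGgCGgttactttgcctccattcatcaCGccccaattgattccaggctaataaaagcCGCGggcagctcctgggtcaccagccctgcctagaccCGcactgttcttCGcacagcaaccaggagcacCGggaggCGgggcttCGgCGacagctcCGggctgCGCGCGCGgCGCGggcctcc
Sgpp2, chr1:78310096-78310344, plus strand: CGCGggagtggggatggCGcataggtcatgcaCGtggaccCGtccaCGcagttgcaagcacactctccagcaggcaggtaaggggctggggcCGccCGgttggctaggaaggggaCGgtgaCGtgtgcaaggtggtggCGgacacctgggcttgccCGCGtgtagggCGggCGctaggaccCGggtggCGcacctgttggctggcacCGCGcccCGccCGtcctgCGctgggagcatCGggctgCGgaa

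The high and low members of these families, which were picked for their difference in level, had similar CG counts. The 250 bases before the start held 19 CG dinucleotides for Degs1 and 18 for Degs2, and 24 for both Sgpp1 and Sgpp2. Among the ceramide synthases the counts varied, at 24 for Cers2, 16 for Cers5, 23 for Cers6 and 11 for Cers4. A relation of CG count to level was not tested. Promoters were matched for 32 of the 36 genes, with the exception of Asah1, B4galnt1, B4galt6 and Smpd3, and where a gene had several starts the one with most CG was taken. The median CG count was 19, against 6 for all genes of the promoter table, 17 for listed genes with a mean of at least 10 and 6 for listed genes below that. Counts ranged from 2 for Asah2 to 43 for Ugcg, and the median GC content was 65.2%, against 52.8% for all genes of the promoter table. The GC content of listed genes with a mean of at least 10 was not computed, so this contrast is with all genes alone.

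**Figure D5:**
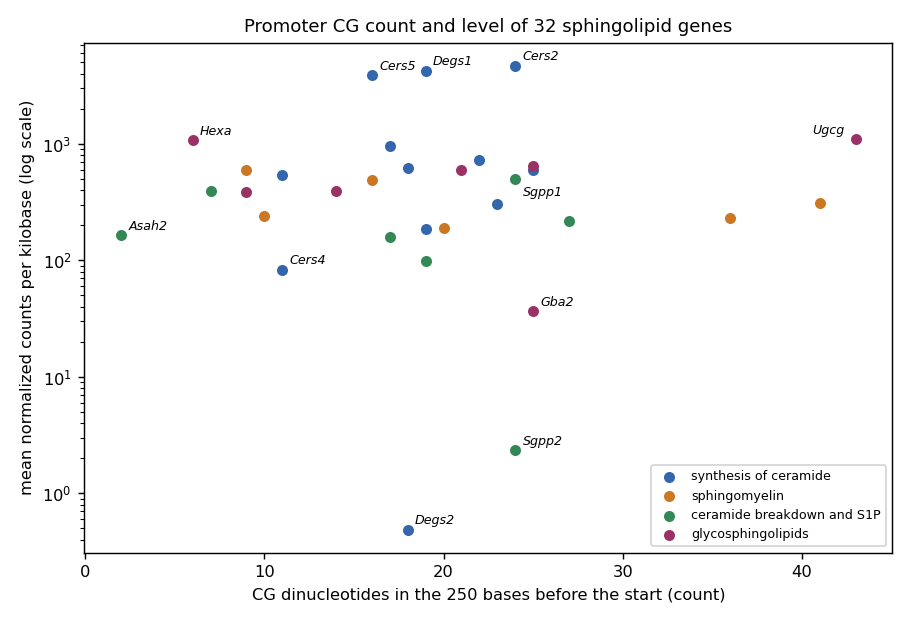
Mean normalized counts per kilobase of the longest transcript (y axis, log scale) against the number of CG dinucleotides in the 250 bases before the start (x axis) for the 32 genes with a promoter, coloured by step, with 11 genes named. Degs1 and Degs2 lie at nearly the same CG count, 19 and 18, with levels of 4226 and 0.488, and Asah2 and Ugcg mark the lowest and highest counts.

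Short motifs were searched on both strands in the same 250 bases, at the start with most CG, a choice that can disfavour motifs rich in A and T. The TATA box TATAAA was in none of the 32 promoters, against 12.6% of all genes of the promoter table and 5.7% of listed genes with a mean of at least 10. The letters GGGCGG, a GC box, were in 25, or 78.1%, against 34.4% and 62.8%. The letters CCAAT were in 11, or 34.4%, against 33.9% and 36.4%. The palindrome CACGTG, an E-box core, was in 6, or 18.8%, against 6.2% and 8.7%, and the 6 were Cers2, Cers6, Degs1, Gla, Sgpp2 and Smpd2. At any annotated start, TATAAA was in 1 gene, Sphk1 (3.1%, against 14.3% of all genes and 7.9% of those with a mean of at least 10), and CACGTG was in 8 of 32, with Sgms2 and Sphk1 added (against 6.9% and 9.9%). CCAAT was then in 15, or 46.9%, against 37.5% and 41.4%. The genes with CACGTG included Degs1, near the top of the levels, and Sgpp2, near the bottom. The matches describe letters in these windows and not bound sites.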

How the data were processed

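RNA was poly(A) selected and made into stranded TruSeq libraries, sequenced as paired ends on a HiSeq4000. The labels and the study's methods differ on the RNA kit and the read length. For the authors' processing the labels name TopHat, Cufflinks, Cuffdiff, HTSeq and DESeq2 with mm10, whereas the authors' methods name STAR with UCSC knownGene, then HTSeq-count and DESeq2. Whether strand was used in counting is not stated.

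The deposited table gives, per gene, the mean over all 6 libraries of normalized counts, which the authors made by dividing read counts by DESeq2 size factors. This deposited mean, a signal value the authors scaled for library depth, was used as it stands, with no error. The table's other columns hold the authors' own comparison (log2 fold change, its standard error, p-value, adjusted p-value and direction of regulation) and were not used. Per-library values are not analysed here, so the planned test between the groups and its alternatives were not run, and no Ms4a15 OE to control difference is given.

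Older symbols were matched through RefSeq synonyms. Lengths, positions and exon overlaps came from GENCODE vM21 on GRCm38, the assembly of mm10. A length was found for 82.9% of the genes, and for 93.6% of those with a mean of at least 100. Since the authors counted on another annotation, levels per kb are approximate. For the 3097 genes with a mean under 1, whole reads were recovered from the mean, each with 1 solution within 2e-08. The recovered libraries were not tied to samples. Counting intervals are exact Poisson on the mean times 6. The recovery was tested on simulated data. Python 3.11.15, pandas 2.3.3, scipy 1.17.1 and biopython 1.88 were used.

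The genes named were all listed sphingolipid genes, further pathway genes with a mean of at least 1000 or at most 1, the cell type markers and Ms4a15. Further genes between these limits were named after their values were seen, and some further genes are not reported here. The members and lists were chosen with earlier results of these data known.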

Additional observations from a re-analysis of the deposited data

How the results depend on the processing

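Levels depended on the length used. The median level of the sphingolipid genes was 441.4 normalized counts per kb of the longest transcript, 296.1 per kb of the union of exons, 1174 per kb of coding length and 1531 undivided. The share of the family's main member per kb, without division by length and with the union of exons (the last chosen after seeing the data) was, in turn, 57.48%, 34.43% and 54.51% for Sptlc1, 44.1%, 37.7% and 51.11% for Ormdl2, 52.14%, 42.95% and 45.58% for Cers2, and 39.7%, 29.63% and 21.67% for Sgms1. It was 46.25%, 64.09% and 41.27% for Smpd4, 90.23%, 73.68% and 91.84% for Asah1, 68.68%, 74.52% and 77.05% for Sphk2, and 53.16%, 45.14% and 52.59% for B4galt5. Sgpp1 had 99.53%, 99.43% and 99.2%, and Degs1 had 99.99% in each. Without members under a mean of 10, Degs1 and Sgpp1 each made up 100.0%. Of 10 families, 5 had the same main member under all 4 length choices, namely Ormdl2, Degs1, Asah1, Sphk2 and Sgpp1, and 5 did not. These shares cover listed genes alone. The family of Sgpp1 lacked Sgpl1 and that of Asah1 lacked Acer2, which had no matching entry and so no known level. The median percentile was 71.38 among all listed genes, 58.65 among genes whose mean reached 10, 65.34 among protein-coding genes and 65.32 by level per kb. The median of the further pathway genes rose from 735.1 to 1732 when genes under a mean of 10 were left out. The number of sphingolipid genes over the minimum was 34 at a mean of 10, 35 at 1, 33 at 100 and 28 at 1000. No paired analysis was possible because the values used give 1 mean per gene over all libraries, and for the same reason the planned changes of normalization and filter and the leaving out of single libraries were not run.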
